A study of Mus musculus with 6 samples.

Results

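Janus kinases (JAKs), suppressors of cytokine signaling (SOCS proteins) and PIM kinases were examined as 10 genes in activated group 2 innate lymphoid cells (aILC2s) of the mouse lung: *Jak1*, *Jak2*, *Jak3*, *Tyk2*, *Socs1*, *Socs2*, *Socs3*, *Cish*, *Pim1* and *Pim2*. They were chosen by name as the kinases and feedback genes of one signaling pathway. All 10 were among the 16381 genes listed with a value and all 10 passed the filter on low values. The cells were sorted from lungs of wild type BALB/c mice given 0.5 µg IL-33 per day for 3 days and were then cultured ex vivo for 24 h. The methods name IL-2 and IL-7 in the medium of the aILC2 cultures for metabolic assays, and for the sequenced cultures the cytokines are not given in the sources used here. One group of 3 samples received 250 µM melatonin and the other group of 3 samples received its solvent DMSO, called vehicle. The study's methods name female mice aged 6 to 8 weeks and a sort to a purity above 95% on CD45, ST2 and CD127 without lineage markers. They do not say whether the 3 samples of a group came from separate mice, so p-values measure the spread between these samples, which may be technical.

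JAKs are tyrosine kinases bound to the inner tails of cytokine receptors. A cytokine brings receptor chains together, the kinases activate each other and phosphorylate STAT transcription factors, and the STATs enter the nucleus. Among the genes that STATs switch on are those of the SOCS proteins, which bind JAKs or receptors and end the signal, and those of the PIM kinases, serine/threonine kinases that favor survival and growth and need no activating phosphorylation. In ILC2s this pathway carries the signals of IL-2, IL-7, IL-4, IL-9 and TSLP. Each of these receptors other than that of TSLP can use the common gamma chain, on which JAK3 sits.

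With melatonin, transcripts of 3 of the 4 JAK genes rose, with *Jak2* from 1134 ± 319 (SD, n = 3) to 3273 ± 903 normalized counts, a 2.89-fold change. The SOCS family split. *Socs3* fell to 0.371 of its vehicle level and *Socs1* fell to 0.819 of it, while *Socs2* rose 1.82-fold and *Cish* rose 1.24-fold. *Pim2* rose 1.61-fold and *Pim1* did not pass the test. In all, 6 of the 10 genes were called higher and 2 lower by limma at an adjusted p-value under 0.05. Among all 14419 genes tested, 24.5% were called higher, 24.7% lower and 49.2% in either direction. For the same 6 genes every melatonin sample was above every vehicle sample, which held for 30.0% of all genes. For the same 2 genes every melatonin sample was below, which held for 30.3%. The median log2 fold change of the 10 genes was 0.38 and that of all genes tested was −0.00.

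A normalized count is the number of reads the authors' software assigned to a gene, divided by a size factor for the sample. Estimated counts totaled between 17056267 and 20511708 per sample, and the 10 genes held between 881 and 15207 estimated counts in any one sample. Fold changes below are differences of mean log2(normalized count + 1). With 3 samples a group, an exact permutation test (two-sided) of a single gene has a smallest p of 0.1, which each of the 8 called genes reached. In bulk samples, fewer cells of a type and less RNA per cell cannot be told apart.

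Cell identity was checked on marker genes. All 14 ILC2 markers were listed, with *Gata3*, the lineage-defining factor, between 17890 and 24588 normalized counts in every sample. The summed level of the 14 was between 176814 and 190319 in vehicle and between 130592 and 137466 in melatonin. *Xist*, made by the inactive X chromosome, reached 579 normalized counts in melatonin replicate 2 and 1091 in replicate 3, against at most 13.6 elsewhere. Y-linked *Ddx3y* was listed at 0 in that pair and lay between 746 and 1071 in the other 4 samples. Those 4 libraries go against the female mice named in the methods. They are all vehicle samples and melatonin replicate 1, so sex-linked transcripts partly follow the treatment. The spread within the melatonin group includes this difference. Each fit without melatonin replicate 1 compares melatonin samples with *Xist* and no *Ddx3y* with vehicle samples that hold *Ddx3y*. In such a fit, sex and treatment cannot be told apart. Without melatonin replicates 2 and 3, which leaves 1 melatonin sample assumed to vary like the vehicle samples, the same 6 genes were called higher and the same 2 lower. Library numbers in the labels run from 20 to 22 for melatonin and from 32 to 34 for vehicle. Only the vehicle labels add v1 to the number. A batch that followed these labels and the treatment cannot be told apart.

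**Figure D1:**
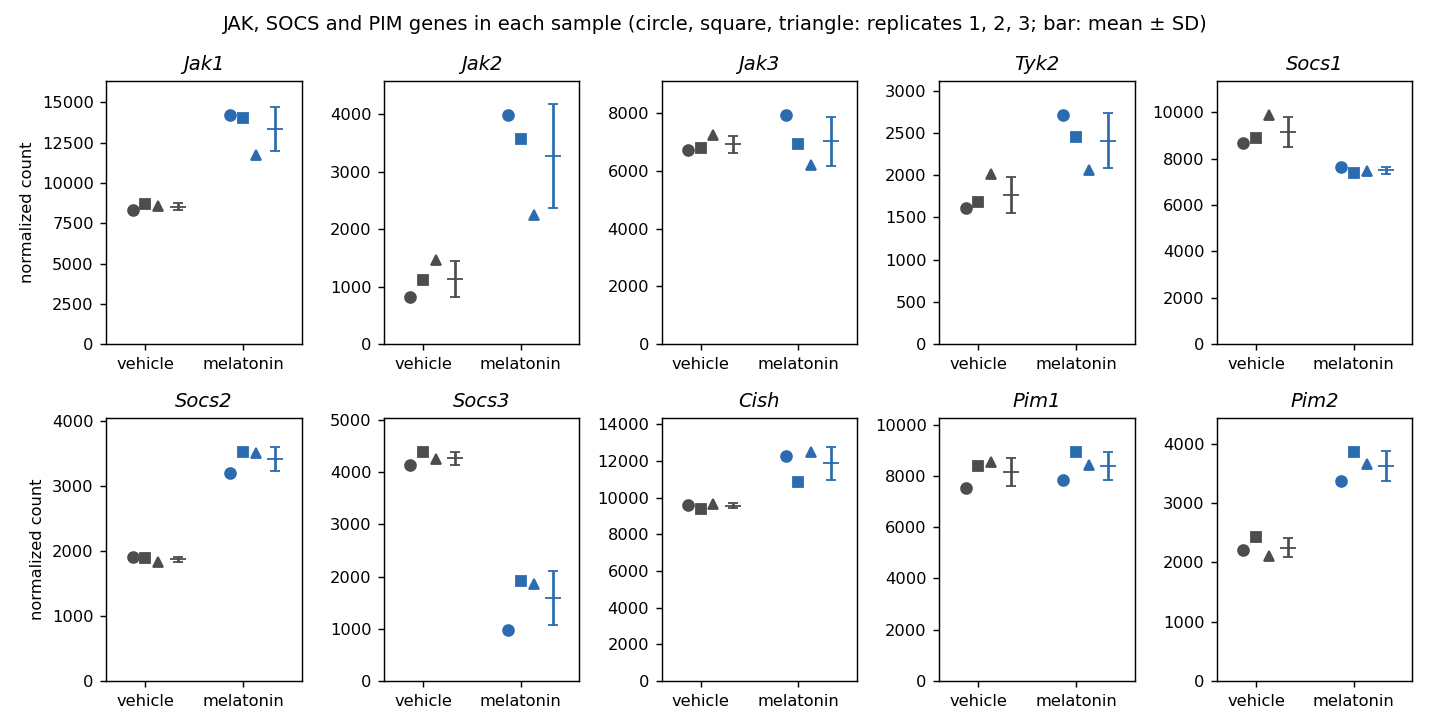
Normalized counts of the 10 genes in each sample, with 1 panel per gene and a vertical axis that starts at 0. Gray symbols are vehicle and blue symbols melatonin, circles, squares and triangles are replicates 1, 2 and 3, and bars are the mean ± SD of 3 samples. The groups are apart in 8 panels and overlap for *Jak3* and *Pim1*.

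The stretch of 250 bases before the start of transcription in RefSeq is shown for the SOCS genes *Socs3* and *Socs1*, which fell, and for *Cish*, which rose, because SOCS genes are known targets of STATs. Sequences are those of RefSeq (assembly GRCm38.p6), placed on GRCm39 by an exact and single match, and are written 5′ to 3′ on the strand of the gene. *Socs3* lies at chr11:117860193-117860442 on the minus strand, *Socs1* at chr16:10603401-10603650 on the minus strand and *Cish* at chr9:107173608-107173857 on the plus strand. Capitals mark TTCNNNGAA, the palindromic core bound by STAT dimers, and pairs of GAAA with any 2 bases between them, the core of the interferon-stimulated response element (ISRE). Both strands were searched. In GENCODE M39, whose gene positions are given below, each of these 3 genes starts upstream of its RefSeq start, so the 3 windows lie within the GENCODE gene.
Socs3: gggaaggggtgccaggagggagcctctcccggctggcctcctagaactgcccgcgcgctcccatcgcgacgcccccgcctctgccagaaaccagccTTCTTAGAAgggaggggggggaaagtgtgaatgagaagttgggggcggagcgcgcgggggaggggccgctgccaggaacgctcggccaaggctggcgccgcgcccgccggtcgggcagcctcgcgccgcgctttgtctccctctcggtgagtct
Socs1: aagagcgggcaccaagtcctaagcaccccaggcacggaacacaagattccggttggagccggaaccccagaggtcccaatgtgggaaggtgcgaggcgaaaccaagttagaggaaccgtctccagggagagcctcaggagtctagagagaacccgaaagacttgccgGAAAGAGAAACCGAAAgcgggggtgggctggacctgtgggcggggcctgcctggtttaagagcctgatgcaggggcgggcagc
Cish: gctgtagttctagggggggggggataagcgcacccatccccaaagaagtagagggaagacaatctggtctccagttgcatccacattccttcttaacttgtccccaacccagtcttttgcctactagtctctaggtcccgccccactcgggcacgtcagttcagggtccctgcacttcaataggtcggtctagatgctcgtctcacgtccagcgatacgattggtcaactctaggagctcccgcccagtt

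The *Socs3* window holds 1 match to TTCNNNGAA, TTCTTAGAA, from 154 to 146 bases before the start. The *Socs1* window holds 2 overlapping ISRE cores, GAAAGAGAAA and GAAACCGAAA, the first of which begins 83 bases before the start. Of the 32817 promoter windows in the table, 7.01% hold at least 1 TTCNNNGAA and 0.177% hold at least 2 ISRE cores, while 2.97% hold at least 1. Windows were found for 9 of the 10 genes, all but *Socs2*. Among these 9, only the *Socs3* window matched TTCNNNGAA and only the *Socs1* window held an ISRE core. A match is a run of letters and says nothing of binding in these cells. A window without a match says nothing of sites outside it, such as those near the GENCODE start.

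*Jak1* (ENSMUSG00000028530, chromosome 4, 101008838 to 101122487 of GRCm39) encodes the kinase that pairs with JAK3 at common gamma chain receptors and with JAK2 or TYK2 at many others. Its normalized counts were 8337, 8724 and 8564 in vehicle replicates 1, 2 and 3 and 14200, 14041 and 11769 in melatonin replicates 1, 2 and 3. The lowest melatonin sample was well above the highest vehicle sample. The log2 fold change was 0.64 (standard error 0.09, limma adjusted p = 0.00064).

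*Jak2* (ENSMUSG00000024789, chromosome 19, 29228677 to 29290505) encodes the kinase of receptors for IL-3, IL-5, GM-CSF and interferon gamma. Samples had normalized counts of 822, 1119 and 1460 in vehicle and 3984, 3578 and 2257 in melatonin. The groups did not overlap, although samples within each group varied more than for any other of the 10 genes in vehicle, with a coefficient of variation of 28.2%, and nearly as much as *Socs3* in melatonin, at 27.6%. On the log2 scale the fold change was 1.53 (standard error 0.24, limma adjusted p = 0.0012). Among 9990 abundant genes, those averaging at least 100 normalized counts, 1.62% had a larger log2 fold change.

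*Tyk2* (ENSMUSG00000032175, chromosome 9, 21015363 to 21042689) encodes the partner kinase at receptors for type I interferons, IL-10 and IL-12. Normalized counts stood at 1608, 1680 and 2010 in vehicle and 2708, 2454 and 2058 in melatonin. Melatonin replicate 3 was only just above vehicle replicate 3. The log2 fold change was 0.44 (standard error 0.12, limma adjusted p = 0.016). This call was lost without vehicle replicate 1 (limma adjusted p = 0.060), vehicle replicate 2 (0.063) or melatonin replicate 2 (0.051).

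*Jak3* (ENSMUSG00000031805, chromosome 8, 72123007 to 72143225) encodes the kinase of the common gamma chain. Its normalized counts were 6716, 6789 and 7242 in vehicle and 7916, 6918 and 6212 in melatonin. The highest and the lowest of the 6 values were both melatonin samples. The log2 fold change was 0.01, with a 95% interval from −0.21 to 0.23 and a limma adjusted p of 0.91. Its sign turned under several settings.

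In all 3 called JAK genes and in *Jak3*, the order of the melatonin samples was the same, with replicate 1 highest and replicate 3 lowest. Per sample, the ratio of *Jak1* to *Jak2* transcripts per kilobase was 9.88, 7.60 and 5.72 in vehicle and 3.47, 3.83 and 5.08 in melatonin, with no overlap between the groups. The ratio of *Jak3* to *Jak1* was between 0.699 and 0.760 in vehicle and between 0.443 and 0.501 in melatonin. The ratio of *Jak1* to *Tyk2* was between 3.72 and 4.53 in vehicle and between 4.58 and 4.99 in melatonin. These ratios were chosen after the values were seen and are given without a test.

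*Socs3* (ENSMUSG00000053113, chromosome 11, 117856905 to 117860898) encodes an inhibitor that binds the IL-6 receptor subunit gp130 and blocks JAK1, JAK2 and TYK2. Its normalized counts were 4150, 4389 and 4262 in vehicle and 985, 1916 and 1852 in melatonin. Vehicle samples lay close together, and melatonin replicate 1 was the lowest of the 6 samples by a wide gap. The log2 fold change was −1.49 (standard error 0.22, limma adjusted p = 0.00081), and 1.89% of the abundant genes had a lower one. Without melatonin replicate 1 it was −1.18, and it was −2.11 with melatonin replicate 1 as the only melatonin sample.
Transcripts that mark macrophages and dendritic cells, cells that the sort gate depletes, moved the same way. All 6 were listed, at a summed 1452 to 1649 normalized counts in vehicle and 364 to 845 in melatonin, and 5 of them fell. None was at 0 in all samples. Summed markers of other cell types were lower too, from 165 to 201 in vehicle against 7.65 to 9.34 in melatonin for NK cells and ILC1s, 1203 to 1336 against 458 to 868 for T cells, 289 to 322 against 131 to 162 for B cells and 1001 to 1066 against 310 to 416 for the endothelial marker *Pecam1*. Epithelial markers went opposite ways. *Sftpc*, of alveolar type 2 cells, fell from a mean of 222 to 5.01 normalized counts and *Scgb1a1*, of club cells, from 387 to 0.335, while *Epcam* rose from 667 to 1097. Vehicle replicate 3 raised the first 2 vehicle means, with *Sftpc* at 155, 122 and 389 in vehicle and *Scgb1a1* at 95.2, 21.5 and 1045. The part of these cells in the *Socs3* result, and in those of the other 9 genes, was not tested.

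*Socs1* (ENSMUSG00000038037, chromosome 16, 10600104 to 10603875) encodes a direct inhibitor of JAK1, JAK2 and TYK2 that is known for restraining interferon signals. Normalized counts stood at 8656, 8901 and 9864 in vehicle and 7629, 7366 and 7467 in melatonin. The melatonin samples were close together and all below vehicle. Its log2 fold change came to −0.29 (standard error 0.08, limma adjusted p = 0.014). The call was lost under quantile normalization (log2 fold change −0.14, limma adjusted p = 0.14) and without vehicle replicate 3 (−0.23, limma adjusted p = 0.067).

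*Socs2* (ENSMUSG00000020027, chromosome 10, 95219523 to 95253929) encodes a feedback inhibitor of growth hormone receptor signaling and is a known target of STAT5. Its normalized counts were 1898, 1883 and 1829 in vehicle and 3195, 3515 and 3506 in melatonin. Both groups were tight, with coefficients of variation of 1.93% and 5.36%. On the log2 scale the fold change was 0.86 (standard error 0.07, limma adjusted p = 7.7e-05), the smallest adjusted p of the 10 genes.

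*Cish* (ENSMUSG00000032578, chromosome 9, 107173225 to 107179983) encodes CIS, the founding SOCS protein, another STAT5 target and a brake on IL-2 and IL-15 responses. Samples had normalized counts of 9600, 9397 and 9677 in vehicle and 12281, 10833 and 12489 in melatonin. All melatonin samples were above vehicle by a modest margin. Its log2 fold change came to 0.31 (standard error 0.08, limma adjusted p = 0.012). The call was lost without vehicle replicate 2 (limma adjusted p = 0.054) and under a correction for transcript length (log2 fold change 0.19, limma adjusted p = 0.083).

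Within the SOCS family, each ratio below sets a gene lower in all melatonin samples over a gene higher in all of them. That these ratios do not overlap between the groups was therefore fixed in advance and adds no finding. Per kilobase of transcript, *Socs3* was 2.09, 2.22 and 2.22 times *Socs2* in vehicle and 0.294, 0.520 and 0.504 times *Socs2* in melatonin. The ratio of *Socs1* to *Cish* was between 1.01 and 1.14 in vehicle and between 0.669 and 0.761 in melatonin. The summed level of the 4 genes per kilobase overlapped between the groups, from 7593 to 8000 in vehicle and from 7334 to 7791 in melatonin. The summed level of the 4 JAK genes did not, from 3024 to 3346 in vehicle and from 3905 to 5054 in melatonin. Sums and ratios were not tested. Of 16 annotated genes that overlap one of the 10 on the genome, 6 were listed with a value, and each of these was far less abundant than the gene it overlaps, the highest being *Raver2* at *Jak1* with means of 87.2 and 87.1 normalized counts. The other 10, among them every gene that overlaps *Jak2*, *Socs1*, *Socs3* or *Cish*, have no value here.

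*Pim2* (ENSMUSG00000031155, chromosome X, 7744501 to 7749689) encodes a PIM kinase that promotes cap-dependent translation and survival of lymphocytes. Its normalized counts were 2215, 2424 and 2106 in vehicle and 3365, 3862 and 3657 in melatonin. The groups were well apart. Its log2 fold change came to 0.69 (standard error 0.09, limma adjusted p = 0.00039). Because *Pim2* is X-linked, the comparison was also made with melatonin replicate 1, the melatonin library without *Xist*, against the 3 vehicle samples. The log2 fold change was then 0.58 (limma adjusted p = 0.0034).

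*Pim1* (ENSMUSG00000024014, chromosome 17, 29709581 to 29715086) encodes the PIM kinase best known as a target of STAT5 and STAT3. Normalized counts stood at 7545, 8389 and 8564 in vehicle and 7840, 8937 and 8433 in melatonin. The groups overlapped throughout. On the log2 scale the fold change was 0.04, with a 95% interval from −0.15 to 0.23 and a limma adjusted p of 0.71. Per kilobase, *Pim1* was between 2.47 and 2.95 times *Pim2* in vehicle and between 1.67 and 1.69 times *Pim2* in melatonin.

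**Figure D2:**
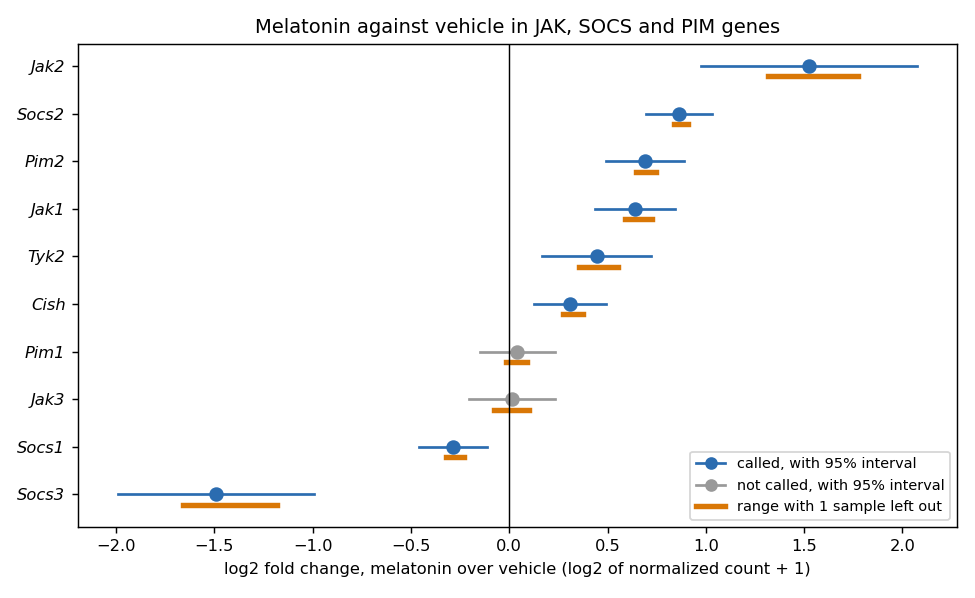
Log2 fold changes of the 10 genes, melatonin over vehicle, on the log2(normalized count + 1) scale. Points with lines are limma estimates with 95% intervals, blue where called and gray where not, and orange bars are the range with 1 sample left out in turn. *Jak2* at 1.53 and *Socs3* at −1.49 lie at the ends, and the intervals of *Pim1* and *Jak3* include 0.

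To compare genes with each other, normalized counts were divided by the length of the canonical transcript. In vehicle-treated aILC2s the highest levels per kilobase were those of *Pim1* at 2871 ± 191 (SD, n = 3), *Socs1* at 2804 ± 196 and *Cish* at 2621 ± 39.8. In this order, neighbors differed by less than the larger of their SDs. *Socs3* at 1602 ± 44.9 and *Jak1* at 1514 ± 34.5 followed. *Jak3* at 1102 ± 45.4 and *Pim2* at 1090 ± 78.4 could not be told apart by their spread. *Socs2* at 736 ± 14.2, *Tyk2* at 359 ± 43.5 and *Jak2* at 206 ± 58.1 were lowest.
In melatonin-treated aILC2s *Cish* came first at 3254 ± 247 per kilobase, then *Pim1* at 2955 ± 193. *Jak1* at 2365 ± 241 and *Socs1* at 2297 ± 40.7 were next and differed by less than the spread of *Jak1*. *Pim2* stood at 1759 ± 121, *Socs2* at 1341 ± 71.9 and *Jak3* at 1118 ± 136. *Jak2* at 595 ± 164, *Socs3* at 595 ± 195 and *Tyk2* at 489 ± 66.5 formed the low end and overlapped within their spread. *Socs3* thus moved from above *Jak1* to the lowest group. These levels depend on which transcript lengths the cells use.

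**Figure D3:**
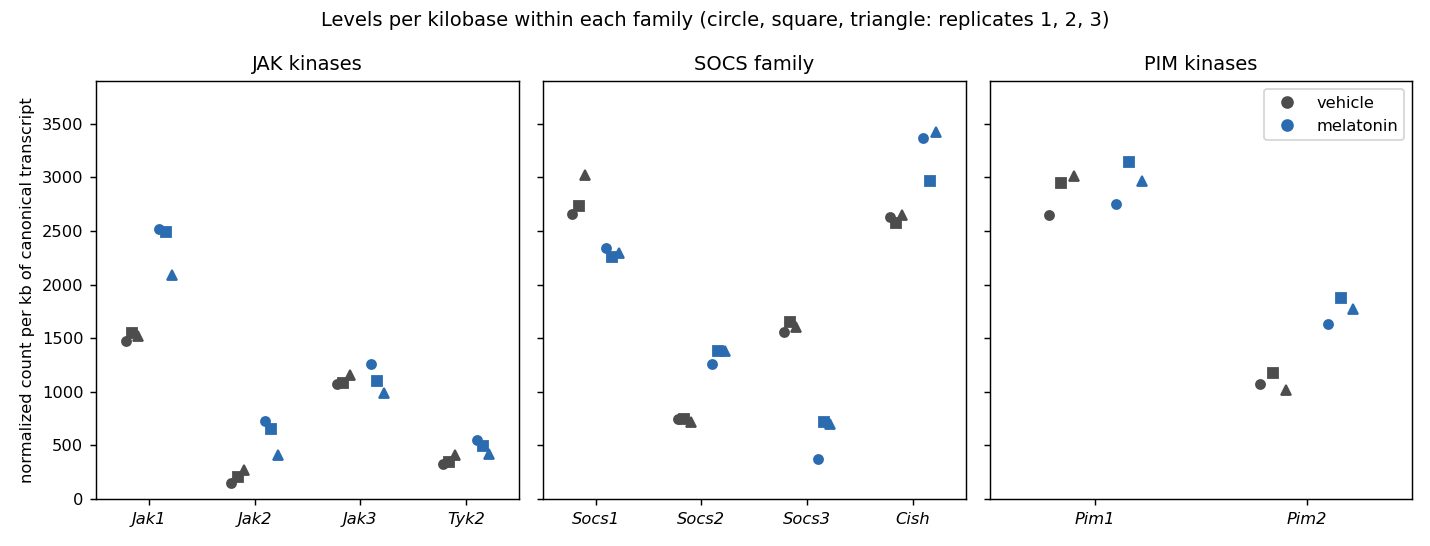
Normalized counts per kilobase of canonical transcript for the JAK, SOCS and PIM genes in each sample, on 1 vertical axis that starts at 0. Gray symbols are vehicle, blue symbols melatonin, and circles, squares and triangles are replicates 1, 2 and 3. *Socs3* drops below *Socs2* with melatonin, and *Jak1* moves away from *Jak3*.

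The other members of both families were less abundant. *Socs5* and *Socs6*, which act mainly outside classical JAK inhibition, rose by log2 fold changes of 1.04 (limma adjusted p = 0.0060) and 0.73 (limma adjusted p = 0.0010), from vehicle means of 81.1 and 425 normalized counts. *Socs4* at 0.31, *Socs7* at −0.65 and *Pim3* at −0.14 were not called, though *Socs4* was without melatonin replicate 1 (limma adjusted p = 0.0241) and *Socs7* without melatonin replicate 1 or 3 (limma adjusted p down to 0.0453). Other omissions brought them nearer to 0, *Socs4* to 0.19 without melatonin replicate 3, *Socs7* to −0.29 without melatonin replicate 2 and *Pim3* to −0.07 without vehicle replicate 3.

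Genes around the 10 were counted in lists of ligands, receptors, STATs, other inhibitors, cofactors and targets. Of the 84 tested genes in these lists, 24 were called higher and 27 lower by limma, beside 24.5% and 24.7% of all genes tested. Each count below is to be read against these shares, and no list was tested against other genes. Of 11 ligand genes tested, 7 were lower and 0 higher, with a median log2 fold change of −0.87, and 1 was called higher without melatonin replicate 1. Among abundant ligands, *Il10* had the lowest log2 fold change at −4.90 (limma adjusted p = 0.00028), followed by *Lif*, which signals through gp130, at −3.25 (limma adjusted p = 3.2e-05). The type 2 cytokines *Il13*, at −2.22, and *Il5*, the most abundant ligand, at −0.75, also fell.

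Of 26 receptor chain genes tested, 7 were higher and 12 lower, with a median of −0.41. The count of higher genes was close to the 24.5% of all genes. The receptor chains for IL-2 and IL-7 moved in different directions. *Il2ra* was at 51580, 52389 and 50819 normalized counts in vehicle and 21436, 36551 and 35211 in melatonin, and fell by 0.77 (limma adjusted p = 0.0080). *Il2rb* fell by 0.69 (limma adjusted p = 0.00036). *Il2rg*, the common gamma chain that binds JAK3, rose by 0.43 (limma adjusted p = 0.024). It lost its call without vehicle replicate 1, 2 or 3, with limma adjusted p-values up to 0.0753, and its log2 fold change was 0.27 without melatonin replicate 1. *Il7r* fell by 1.06 and lost its call without melatonin replicate 2 (limma adjusted p = 0.0529). Its melatonin replicate 1, at 1655 normalized counts, was nearer to vehicle, at 1810.9 to 2102.5, than replicates 2 and 3, at 743 and 700. *Csf2rb*, the shared chain of the IL-3, IL-5 and GM-CSF receptors that works with JAK2, had the largest called change among abundant receptors at −3.80 (limma adjusted p = 0.00088). *Il3ra* was at −1.70, and *Ifngr2*, the interferon gamma receptor chain that carries JAK2, was at 1.62 (limma adjusted p = 7.4e-05). *Csf2rb* and *Il3ra* fell together with the macrophage and dendritic cell markers given above, whose part in these changes was not tested.

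Of the 7 STAT genes 5 were higher and 1 lower, with a median of 0.43. Without vehicle replicate 2, and also under length correction, 3 were called higher, and leaving out 1 sample in turn gave between 0 and 2 called lower. *Stat2* at 1.10, *Stat4* at 0.91 and *Stat6* at 0.48 rose. *Stat3*, the most abundant of the 7, rose by 0.31 (limma adjusted p = 0.013). That call was lost under length correction and without vehicle replicate 1 or 2 (limma adjusted p up to 0.0548). *Stat5b* fell by 0.28 (limma adjusted p = 0.021), a call lost without vehicle replicate 2 or 3 (limma adjusted p up to 0.0805). *Stat5a* was at −0.35 with a limma adjusted p of 0.057, and its value rested on the samples used. It was −0.19 without melatonin replicate 1 (limma adjusted p = 0.0694) and −0.44, and called, without melatonin replicate 3 (limma adjusted p = 0.0347), and the limma adjusted p was up to 0.146 with 1 sample left out. For both STAT5 genes all melatonin samples were below all vehicle samples.

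Of 11 other brakes on the pathway, 4 were higher and 1 lower, against 24.5% and 24.7% of all genes, and the count of lower genes ranged from 0 to 2 with 1 sample left out in turn. *Sh2b3*, the adaptor LNK that restrains JAK2, rose by 1.31 (limma adjusted p = 0.00063), and *Pias3* and *Pias1*, which inhibit STATs in the nucleus, rose by log2 fold changes of 1.07 and 0.53. *Ptprc*, the phosphatase CD45 and the most abundant of this list, was at −0.04 and not called. Its sign turned under 5 settings, with −0.11 without melatonin replicate 1 and 0.07 without melatonin replicate 3. The 4 partners that SOCS proteins recruit to form a ubiquitin ligase, *Elob*, *Eloc*, *Cul5* and *Rnf7*, had log2 fold changes between −0.09 and −0.04, and none was called. *Elob* was at 0.0017 without melatonin replicate 1 and at −0.18 without melatonin replicate 3, and its sign turned under length or GC correction. The 3 genes of the HSP90 and CDC37 chaperone system, which folds many kinases, were all lower. *Hsp90aa1* had −0.97 (limma adjusted p = 0.0018), *Cdc37* −0.42 and *Hsp90ab1* −0.32. *Hsp90ab1* lost its call without vehicle replicate 1, 2 or 3 (limma adjusted p up to 0.0676).

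Of 7 survival and cell cycle genes that respond to STAT5, 4 were higher and 1 lower. *Bcl2l1*, which encodes the survival protein BCL-XL, rose by 0.68 (limma adjusted p = 0.0015), and *Myc* fell by 0.53 (limma adjusted p = 0.0080). *Mcl1* was at 0.79 and lost its call without melatonin replicate 1 or 2 (limma adjusted p up to 0.0601). Without vehicle replicate 1 its log2 fold change was 0.47 (limma adjusted p = 0.0264). *Ccnd3*, a cyclin, was at −0.21 and not called, though it was under upper quartile scaling, with sample weights and without melatonin replicate 1. Without that replicate 2 genes of this list were called lower. Of 11 genes for PIM substrates, 2 were higher and 2 lower, both below the 24.5% and 24.7% of all genes. Without melatonin replicate 2, 1 was called higher, and without melatonin replicates 2 and 3, 4 were called lower. *Bad*, a death-promoting protein that PIM kinases inactivate, rose by 0.64, and *Eif4b*, a translation factor, and *Cbx3* fell by 0.98 and 0.94. *Cdkn1a*, a cell cycle inhibitor, was at −0.49 (limma adjusted p = 0.053) and its call and sign depended on the melatonin samples used. Without melatonin replicate 1 it was called lower at −0.75 (limma adjusted p = 5.7e-05), and its sign turned when melatonin replicate 1, at 6836 normalized counts against 6502, 6737 and 6973 in vehicle, was the only melatonin sample.

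**Figure D4:**
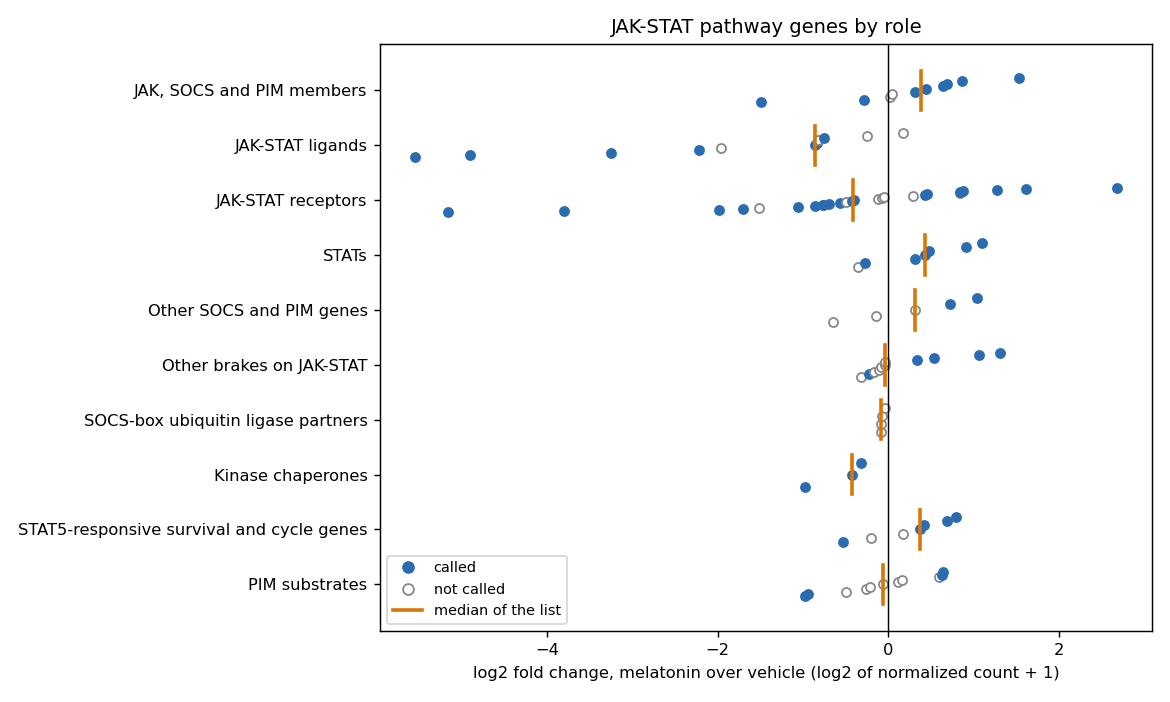
Log2 fold changes, melatonin over vehicle, of the 10 genes and of the other pathway genes by role, on the log2(normalized count + 1) scale. Each point is a gene, filled blue where called by limma and open where not, and orange bars are medians. Apart from the 10 genes, shown as 1 group with a median of 0.38, the ligands have the lowest median, at −0.87, and the STATs the highest, at 0.43.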

How the data were processed

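RNA was sequenced from 6 samples. The authors trimmed and quantified reads in Partek Flow 12.9.0, used STAR 2.7.8a for alignment (mm39), and counted per Gencode M33 gene by expectation-maximization, which can split reads. Their methods name a filter at 10 counts, but the table still lists genes with fewer in every sample. The deposited signal is the estimated count divided by a median-ratio size factor per sample. RNA input is 10 pg in the methods and 10 ng in the labels.

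From these values, limma 3.58.1 (R 4.3.3; lmFit, eBayes with a mean-variance trend) compared log2(normalized count + 1) between treatments. Genes reaching 10 in 1 or more samples were tested, and Benjamini-Hochberg adjustment ran over all 14419. The script was tested on simulated data. Names and positions came from GENCODE M39, which named 16334 of 16381 identifiers. Members and lists were chosen with earlier results of these data known. Beyond them, named genes are the IL-2 and IL-7 receptor chains, STAT5 genes and, per list, up to 3 abundant called genes with the largest change and the most abundant gene. All genes of the lists of other SOCS and PIM genes and of ubiquitin ligase partners are named too. Alternatives are in the closing section.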

Additional observations from a re-analysis of the deposited data

How the results depend on the processing

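Over 200 refits of the 10 genes (20 alternatives each), 181 kept the direction and side of the threshold, 9 lost a call and 10 changed sign, all 10 for *Jak3* and *Pim1*, which were never called. *Jak1* (0.51 to 0.76), *Jak2* (1.31 to 1.85), *Socs2* (0.77 to 0.91), *Socs3* (−2.11 to −1.18) and *Pim2* (0.58 to 0.82) kept their calls in all of theirs. With 1 sample left out in turn, log2 fold changes ran from −0.0764 to 0.0984 for *Jak3*, 0.35 to 0.55 for *Tyk2*, −0.32 to −0.23 for *Socs1*, 0.27 to 0.37 for *Cish* and −0.0145 to 0.0904 for *Pim1*, and 1 to 2 of the 10 genes were called lower. Upper quartile scaling gave −0.0355 for *Jak3* and −0.0083 for *Pim1*, sample weights −0.0127 for *Jak3*, quantile normalization −0.14 for *Socs1*, and limma without the trend 0.44 for *Tyk2*, no longer called. Corrections for transcript length and GC content and the fit without melatonin replicates 2 and 3 were chosen after seeing the data. Length correction gave −0.0941 for *Jak3*, 0.30 for *Tyk2*, 0.19 for *Cish* and −0.0454 for *Pim1*, and without replicates 2 and 3 *Pim1* was at −0.0566. The 6 genes called higher became 4 without vehicle replicate 2, under length correction or at an adjusted p under 0.01, and 5 without vehicle replicate 1, without melatonin replicate 2 or without the trend. Quantile normalization or an adjusted p under 0.01 left 1 gene called lower, and a log2 fold change of at least 1 left 1 higher and 1 lower, and 7 higher and 9 lower among the pathway lists. The causes were not tested.

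Whether replicate numbers pair the samples was not settled. Deviations of same-numbered samples from their group means correlated at −0.11, 0.14 and −0.19. Replicate 2 correlated best with its own number, and replicates 1 and 3 did not. Deviations from a mean of 3 samples depend on each other, so these correlations cannot show that the samples were unpaired. With the replicate block, 6 genes were called higher and 2 lower, and calls over all genes were 3160 higher and 3278 lower.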
